A study of Mus musculus with 16 samples.

Results

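The genes described here handle cholesterol storage, uptake and efflux, and were followed in tumours of H295R, a human adrenocortical carcinoma line that makes steroid hormones. They were chosen as a list of 8 human RefSeq identifiers, matched exactly to the identifier that the array files give for each probe. The list holds SOAT1 (NM_003101), SCARB1 (NM_005505), LIPE (NM_005357), ABCA1 (NM_005502), ABCG1 (NM_004915), NR1H3 (NM_005693), NR1H2 (NM_007121) and MYLIP (NM_013262). The array carried 7 of the 8 among its 29094 identifiers, and ABCG1 was dropped because its identifier was not on the array. The 7 genes had 8 probes, of 34127 in all, since ABCA1 had 2. All 7 were among the 20216 transcripts tested.

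The tumours grew in SCID mice, a strain without working T and B lymphocytes, which were treated by mouth for 28 days. The control group received corn oil. The other groups received mitotane, the retinoid 9-cisRA (9-cis retinoic acid) or the pair of them, a group called combined. Mitotane is an adrenal-toxic drug for adrenocortical carcinoma. A ligand of RAR and RXR, 9-cisRA acts through these nuclear receptors. Tumour RNA, labelled with Cy3, was read on Agilent arrays of 1 colour. All 4 groups share the line and the host strain, and the results rest on a single tumour line. GEO gives the organism as mouse, whereas the file headers name a human array. Whether each array holds the tumour of its own mouse is not stated in the labels, and the p-values then measure only the spread between these samples, which may be technical. Doses, and the age of the animals, were not given in the sources used here.

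Adrenocortical cells take up cholesterol from lipoproteins, store the excess as esters in lipid droplets and release it again for steroid synthesis. Free cholesterol is toxic to these cells when it accumulates, and SOAT1, the enzyme that esterifies it in the endoplasmic reticulum, is an established target of mitotane. Oxysterols formed from cholesterol activate the liver X receptors, which pair with RXR and switch on the genes of cholesterol efflux.

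Each of the 4 slides held 1 array of each group, and replicate numbers, given in accession order, are also the slide numbers. Scanner data of 15 arrays were used, 4 each for control, mitotane and 9-cisRA and 3 for combined treatment. Combined replicate 3 was read only through the value table that the authors deposited. Values are log2 signals relative to the array's 75th percentile of signal, so 0 is the level of that percentile, and a difference of 1 is a doubling in signal. On 14 arrays that percentile was an intensity of 551.5 to 1061, and on control replicate 4 it was 224.2. The latter also stood apart in its median correlation with the other arrays, which was 0.874 against 0.977 to 0.990 elsewhere. Combined replicate 4, 1 of the 3 combined arrays, had the next lowest correlation (0.977). Its share of probes above background was the smallest (57.9%, against 61.6% to 75.9% elsewhere), and its outlier spots were the most frequent (589). The other arrays of slide 4 had 511 (control), 445 (mitotane) and 340 (9-cisRA) outlier spots, against 273 to 339 on slides 1 to 3. All 9-cisRA arrays were at position 4 of their slide, so position and treatment cannot be told apart for that group. The controls were at position 3, except control replicate 4, which was at position 2. Combined replicates 1, 2 and 4 were at positions 2, 1 and 1, and mitotane replicates 1 to 4 at 1, 2, 1 and 3. Without control replicate 4, all controls were at position 3 and no combined array was. Position and treatment thus cannot be told apart for combined minus control in that fit. Because control replicate 4 stood apart, changes of the tested probes against control are given with and without it. Those under combined treatment are also given without combined replicate 4 where it moved them by over 1.5 times. The tested probes of all 7 genes were well above background and unsaturated on all 15 arrays. Levels of different probes are not set against each other, because probes differ in their response. The files hold no gene symbols, so the adrenocortical, stromal and immune marker genes that could check the tissue were not analysed here.

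No gene of the list passed an adjusted p of 0.05 in limma in any of the comparisons. The same was true of all transcripts tested, with 0% called in each of the 6 pairwise comparisons, in the interaction and in the F test of any difference among the 4 groups. The widest separations within the list belonged to the liver X receptor NR1H3 and the efflux pump ABCA1, both highest under combined treatment. SOAT1 itself had group means within 0.11 of each other. The members' median change against control was 0.17 under mitotane, 0.09 under 9-cisRA and 0.22 under combined treatment. The corresponding medians over all 20216 transcripts were 0.09, 0.03 and 0.09. All 7 genes had a change above 0 under combined treatment, where 58.7% of all transcripts did. Under mitotane 6 of 7 did, against 61.5% of all transcripts, and under 9-cisRA 7 of 7, against 53.9%. Without control replicate 4 the members' medians were 0.07, 0.05 and 0.16, beside 0.08, 0.02 and 0.08 over all transcripts, so that the mitotane median was no longer above that of all transcripts. The members' combined median was 0.10 without combined replicate 4, beside 0.10 over all transcripts. Without both of these arrays it was 0.01, below the 0.08 over all transcripts. Without control replicate 4 the genes above 0 were 5 of 7 under mitotane, 4 of 7 under 9-cisRA and 6 of 7 under combined treatment. The share of all transcripts above 0 was not counted in that fit. The 3 comparisons share the control arrays, so their signs are not independent.

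**Figure D1:**
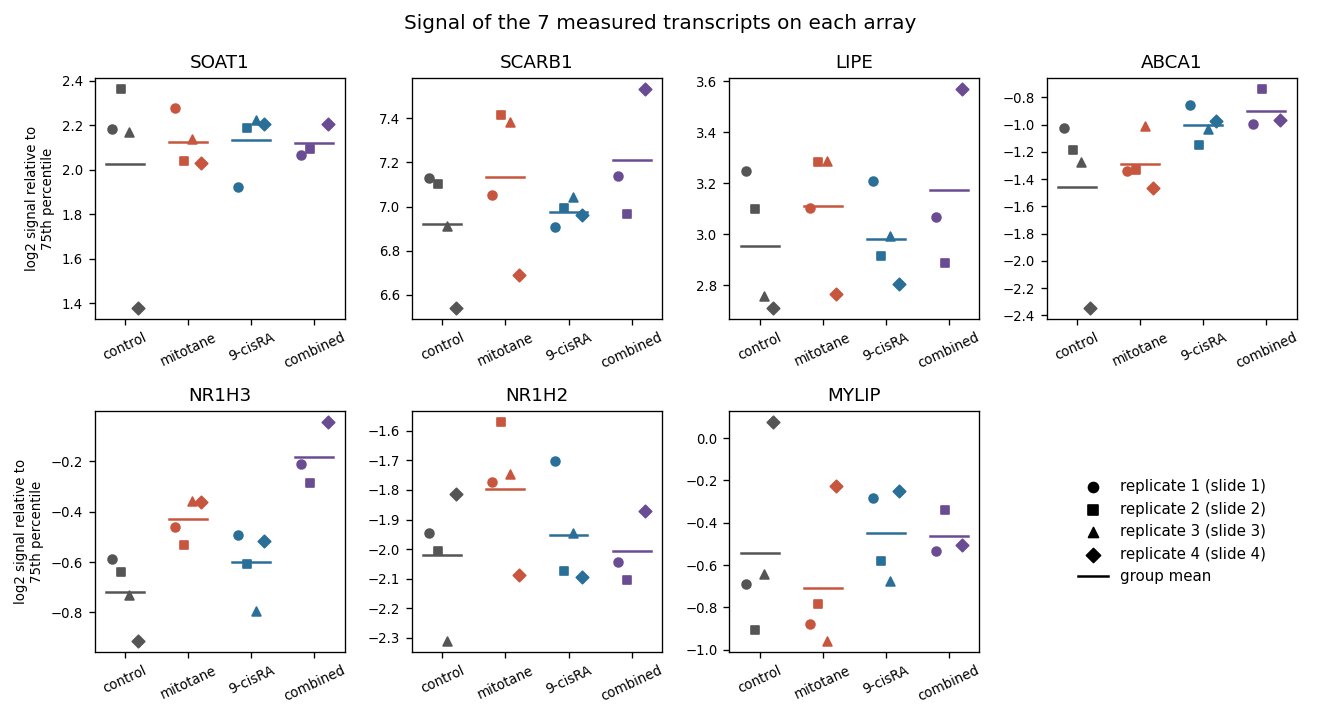
Log2 signal relative to the array's 75th percentile (vertical axis, a scale of its own for each gene) of the 7 measured genes on each of 15 arrays, by treatment group. Symbols mark the replicate, which is also the slide, and bars are group means. Control replicate 4 lies apart for SOAT1 and ABCA1, and the 3 combined arrays of NR1H3 lie above the 12 others. Combined replicate 3 has no scanner data and is not shown.

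SOAT1 (probe A_24_P216654) forms cholesteryl esters for storage. Its log2 signal on the control arrays was 2.18, 2.36, 2.17 and 1.38 in replicates 1 to 4. Under mitotane it was 2.28, 2.04, 2.14 and 2.03. Under 9-cisRA it was 1.92, 2.19, 2.22 and 2.20, and on combined replicates 1, 2 and 4 it was 2.06, 2.09 and 2.20. Control replicate 4 was the lowest of all arrays and control replicate 2 the highest, so the treated groups lay inside the range of the controls.

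The mean SOAT1 log2 signal was 2.02 ± 0.44 (SD, n = 4) in controls, 2.12 ± 0.11 (n = 4) with mitotane, 2.13 ± 0.14 (n = 4) with 9-cisRA and 2.12 ± 0.07 (n = 3) with both. The log2 change against control was 0.10 ± 0.18 (SE) for mitotane, with a 95% interval from -0.30 to 0.49. For 9-cisRA it was 0.11 (95% interval -0.28 to 0.51), and for combined treatment 0.10 (-0.33 to 0.52). Adjusted p-values in limma ran from 0.807 to 0.843 over these comparisons. On a linear scale the interval for mitotane runs from 0.815-fold to 1.41-fold of control. Changes of SOAT1 mRNA within that interval remain compatible with these arrays, and the p-values do not show that its level was the same.

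The direction of the SOAT1 change turned with a single array. Without control replicate 4 the control mean was 2.24 ± 0.11 (n = 3), above all treated means. The change was then -0.12 for mitotane (95% interval -0.35 to 0.12, adjusted p = 0.706 in limma) and -0.10 for 9-cisRA (-0.34 to 0.13, adjusted p = 0.980). For combined treatment it was -0.12 (-0.37 to 0.13, adjusted p = 0.603). With control replicate 4 kept and combined replicate 4 left out, it was 0.06 ± 0.23 (SE). Within slides, combined minus control was -0.12 on slide 1, -0.27 on slide 2 and 0.82 on slide 4, the slide that holds control replicate 4. Between the treated groups the log2 difference of SOAT1 was -0.002 ± 0.20 (SE) for combined minus mitotane and -0.01 ± 0.20 for combined minus 9-cisRA. The 95% interval of combined minus mitotane was -0.24 to 0.23 without control replicate 4.

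The other gene of ester storage, LIPE (hormone-sensitive lipase, probe A_33_P3294986), hydrolyses stored esters and so releases free cholesterol. Its log2 signal lay between 2.71 and 3.25 on the control arrays, 2.76 and 3.29 under mitotane, 2.80 and 3.21 under 9-cisRA and 2.89 and 3.57 under combined treatment. The ranges overlapped in every pair of groups. The change for combined treatment was 0.22 ± 0.20 (SE), with an adjusted p of 0.631 in limma, and those for mitotane and 9-cisRA were 0.16 and 0.03. Without control replicate 4 the changes were 0.14 for combined treatment, 0.07 for mitotane and -0.05 for 9-cisRA. On slides 1 and 2 combined minus control was -0.18 and -0.21, and on slide 4 it was 0.86. The change for combined treatment was 0.02 without combined replicate 4, and -0.06 without control replicate 4 as well. The combined array of slide 4 gave the highest LIPE signal of all and control replicate 4 the lowest.

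SCARB1 (probe A_23_P203900) encodes SR-BI, the receptor through which adrenal cells take up cholesteryl esters from HDL. Its log2 signal was 6.54 to 7.13 in controls, 6.69 to 7.41 under mitotane, 6.91 to 7.04 under 9-cisRA and 6.97 to 7.53 under combined treatment. The highest value was again combined replicate 4 and the lowest control replicate 4. The change for combined treatment was 0.29 ± 0.20 (SE; adjusted p = 0.539 in limma) and was 0.16 without control replicate 4. It was 0.13 without combined replicate 4 and 0.005 without both of these arrays. Mitotane gave 0.21 (adjusted p = 0.727) and 0.09 without that array. For 9-cisRA the change was 0.06, and -0.07 without control replicate 4. The SCARB1 changes also moved with the processing. With quantile normalization they were 0.42 for mitotane, 0.29 for 9-cisRA and 0.37 for combined treatment. With normexp background correction and quantile normalization they were 0.43, 0.32 and 0.40, and none was called. The 4 arrays of 9-cisRA were the closest together, with an SD of 0.06 against 0.27 to 0.34 in the other groups, and the difference in spread was not tested. MYLIP, which marks the LDL receptor for degradation and so limits the other route of uptake, is described with the receptors' targets below.

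NR1H3 and NR1H2 encode the liver X receptors LXRα and LXRβ. NR1H3 (probe A_33_P3237775) had a log2 signal of -0.59, -0.64, -0.73 and -0.91 in control replicates 1 to 4. Under mitotane it was -0.46, -0.53, -0.36 and -0.36, and under 9-cisRA -0.49, -0.61, -0.79 and -0.51. Combined replicates 1, 2 and 4 gave -0.21, -0.29 and -0.04. All 3 combined arrays with scanner data thus lay above all 12 others, and all 4 mitotane arrays lay above all 4 controls. In the value table, which adds combined replicate 3, the combined and mitotane arrays overlapped. The share of all transcripts with 1 group above all the others was not counted. The 9-cisRA arrays overlapped both the controls and the mitotane arrays.

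The group means of NR1H3 were -0.72 ± 0.14 (SD, n = 4) in controls, -0.60 ± 0.14 (n = 4) with 9-cisRA, -0.43 ± 0.08 (n = 4) with mitotane and -0.18 ± 0.12 (n = 3) with both. In that order, control and 9-cisRA, and 9-cisRA and mitotane, were neighbours with overlapping arrays. Combined minus control was 0.54 ± 0.13 (SE) on the log2 scale, a 1.45-fold difference with a 95% interval of 1.19-fold to 1.77-fold. Its adjusted p in limma was 0.213, and without control replicate 4 the change was 0.47 ± 0.11 with an adjusted p of 0.148. Combined minus 9-cisRA was 0.42 ± 0.13 (1.34-fold, adjusted p = 0.314, and 0.0926 without control replicate 4). Combined minus mitotane was 0.25 ± 0.13 (adjusted p = 1.000). Mitotane minus control was 0.29 ± 0.12 (adjusted p = 0.713), and 0.23 without control replicate 4, while 9-cisRA minus control was 0.12 ± 0.12, and 0.05 ± 0.11 without control replicate 4. Without combined replicate 4, combined minus control was 0.47 ± 0.15 (adjusted p = 0.598), and without both of these arrays 0.40 ± 0.12 (adjusted p = 0.367). The interaction, the combined change less the sum of the single ones, was 0.13 ± 0.18 (95% interval -0.26 to 0.52). Without control replicate 4 it was 0.19 (-0.13 to 0.51). A departure from additivity on the log2 scale was thus not detected, and these intervals do not exclude one.

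The higher NR1H3 signal of the combined tumours was present on each slide with scanner data of a combined array. Combined minus control was 0.38, 0.35 and 0.87 on slides 1, 2 and 4. Combined minus mitotane was 0.25, 0.24 and 0.32, and combined minus 9-cisRA was 0.28, 0.32 and 0.47 on the same slides. Mitotane minus control was 0.13, 0.11, 0.38 and 0.55 on slides 1 to 4. Every one of these differences, all from scanner data, was above 0, and the largest difference from control was on slide 4 in both cases. On slide 3 of the authors' value table, combined replicate 3 (0.08) was below mitotane replicate 3 (0.11). It was above control replicate 3 (-0.23) and 9-cisRA replicate 3 (-0.30). The residual SD of NR1H3 over the 15 arrays was 0.12, and 1.07% of the tested transcripts had a lower one. The median residual SD of all transcripts was 0.31. Tumour tissue was measured as a whole, so more cells of a type and more RNA per cell cannot be told apart.

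**Figure D2:**
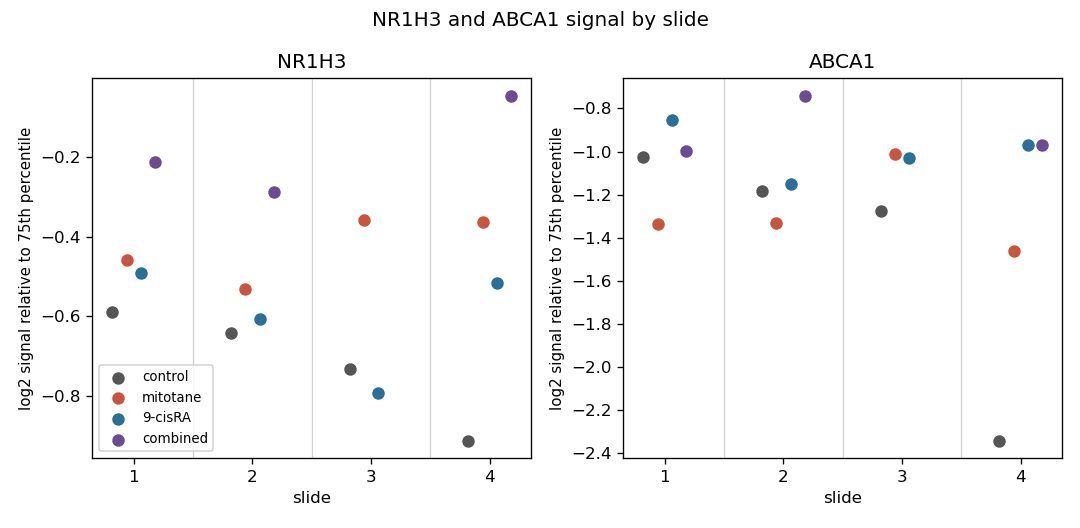
Log2 signal relative to the array's 75th percentile (vertical axis) of NR1H3 (left) and ABCA1 (right) on each array, by slide (horizontal axis) and treatment group (colour). On slides 1, 2 and 4 the combined array is the highest of its slide for NR1H3, and the control of slide 4 is the lowest ABCA1 value, at -2.34; slide 3 has no scanner data for the combined array.

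An unadjusted p under 0.05, or 2 groups without overlap, was not rare among all transcripts. NR1H3 was among the 6.04% of transcripts at an unadjusted p under 0.05 for mitotane minus control, as 1 of the 7 genes. It was no longer at that level in 5 of the 15 fits that left out 1 array, namely without mitotane replicates 1, 3 or 4 or control replicates 3 or 4. For combined minus control 2 of the 7 genes, NR1H3 and ABCA1, were at that level, where 13.8% of transcripts were. NR1H3 stayed there in all 15 fits that left out 1 array, and ABCA1 in 4, those without mitotane replicate 3 or control replicates 1, 2 or 3. NR1H3 alone was at that level for combined minus 9-cisRA (background 9.47%) and in the F test (background 8.1%). None of the 7 was for 9-cisRA minus control (background 3.51%), combined minus mitotane (4.75%), mitotane minus 9-cisRA (4.84%) or the interaction (3.71%). The unadjusted p of NR1H3 in limma was 0.0013 for combined minus control, 0.0074 for combined minus 9-cisRA and 0.0075 in the F test. These are further below 0.05, and the shares of transcripts with a p as low were not counted. Groups did not overlap for NR1H3 in mitotane against control, where 4.24% of transcripts did not overlap, and in combined against 9-cisRA, where 16.4% did not. Both NR1H3 and ABCA1 did not overlap in combined against control, with 15.2% of transcripts likewise, and in combined against mitotane, with 11%. All 7 genes overlapped between 9-cisRA and control (background 2.39%) and between mitotane and 9-cisRA (background 4.67%).

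The value table, which adds combined replicate 3, was used to read the missing array. There NR1H3 stayed above control and above 9-cisRA on all 4 combined arrays, where 11% and 11.2% of transcripts did not overlap. Combined and mitotane overlapped for NR1H3, because combined replicate 3 was at 0.08 and the mitotane arrays reached 0.12 on that table's scale. ABCA1 did not overlap between combined and mitotane (background 6.6%), but overlapped between combined and control.

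NR1H2 (probe A_23_P55926), the other liver X receptor, had means of -2.02 ± 0.21 (SD, n = 4) in controls, -1.80 ± 0.21 (n = 4) with mitotane, -1.95 ± 0.18 (n = 4) with 9-cisRA and -2.01 ± 0.12 (n = 3) with both. All pairs of groups overlapped. The change for combined treatment was 0.01 ± 0.17 (SE, 95% interval -0.34 to 0.37, adjusted p = 0.977 in limma). Mitotane minus control was 0.22 ± 0.15 (adjusted p = 0.713) and combined minus mitotane -0.21 ± 0.17. Without control replicate 4 mitotane minus control was 0.29 (adjusted p = 0.616), and combined minus control was 0.08. The latter was -0.06 without combined replicate 4. The highest mean of NR1H2 was therefore under mitotane and that of NR1H3 under combined treatment. Whether the receptors differed in their change was not tested.

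ABCA1, the pump that loads cholesterol onto lipid-poor apolipoprotein and a classical liver X receptor target, was read by probe A_24_P235429. Its log2 signal was -1.02, -1.19, -1.27 and -2.34 in control replicates 1 to 4. Under mitotane it was -1.34, -1.33, -1.01 and -1.46, under 9-cisRA -0.85, -1.15, -1.03 and -0.97, and in combined replicates 1, 2 and 4 -0.997, -0.74 and -0.97. The combined and 9-cisRA groups were high and overlapped each other. All 3 combined arrays lay above the 4 mitotane arrays, and they cleared the highest control by 0.03 at the narrowest.

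The mean of ABCA1 was -1.46 ± 0.60 (SD, n = 4) in controls and -1.16 ± 0.13 (n = 3) without control replicate 4. It was -1.29 ± 0.19 (n = 4) with mitotane, -1.001 ± 0.12 (n = 4) with 9-cisRA and -0.90 ± 0.14 (n = 3) with both. Combined minus control was 0.55 ± 0.25 (SE, 1.47-fold, adjusted p = 0.351 in limma) and was 0.26 ± 0.14 (1.20-fold, adjusted p = 0.321) without control replicate 4. For 9-cisRA the change was 0.46 ± 0.23 (adjusted p = 0.744) and 0.16 without that array. For mitotane it was 0.17 ± 0.23 and turned to -0.13 without it. The change by slide of combined minus control was 0.03, 0.44 and 1.38 on slides 1, 2 and 4.

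The difference of ABCA1 between the treated groups did not draw on the controls' level. Combined minus mitotane was 0.39 ± 0.25 (SE, 1.31-fold), and 0.34, 0.59 and 0.50 on slides 1, 2 and 4. The SE was 0.13 when control replicate 4 was left out of the shared estimate of spread, with an adjusted p of 0.289. Mitotane minus 9-cisRA was -0.29 ± 0.23, with an SE of 0.12 and an adjusted p of 0.395 without control replicate 4. Without that array ABCA1 was at an unadjusted p under 0.05 in this comparison, where 11.2% of transcripts were. In combined minus mitotane both ABCA1 and NR1H3 were (background 11.5%), as was NR1H3 in combined minus control (18.3%) and in combined minus 9-cisRA (19%). In the F test both genes were (15.7%).

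The other ABCA1 probe (A_33_P3422897) was dim, and was not well above background on combined replicate 4. It gave 0.19 ± 0.29 (SE) for combined minus control, 0.16 for 9-cisRA and 0.12 for mitotane. Combined minus mitotane was 0.08 ± 0.29 on this probe. With control replicate 4 included, the probes had the same direction in these comparisons, with a smaller size on the dim one in each. On control replicate 4 they parted. The dim probe was at -3.41 there and between -4.35 and -4.11 on the other controls, whereas the bright probe was lowest on that array. Without that array the bright probe gave -0.13 for mitotane minus control. On the dim probe the mitotane mean (-3.93) lay above each of the other controls, so the directions then differed for mitotane. For combined treatment and 9-cisRA both probes stayed above control. For these treatments the smaller size on the dim probe against control held only with that array included. Without it the dim probe gave the larger differences from control. Its means for combined treatment and 9-cisRA were -3.85 and -3.88, beside -4.35 to -4.11 on the other controls. The bright probe's changes were then 0.26 and 0.16. The difference between the probes was not tested.

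MYLIP, also called IDOL, is a ubiquitin ligase that liver X receptors induce and that sends the LDL receptor to degradation. Its log2 signal (probe A_33_P3255914) was -0.69, -0.91, -0.64 and 0.07 in control replicates 1 to 4. It was between -0.96 and -0.22 under mitotane, -0.68 and -0.25 under 9-cisRA and -0.53 and -0.34 under combined treatment. Here control replicate 4 was the highest of all arrays. The change for mitotane was -0.17 ± 0.22 (SE, adjusted p = 0.777 in limma) and 0.04 without that array. For 9-cisRA it was 0.09 and 0.30 without it, and for combined treatment 0.08 ± 0.23 (adjusted p = 0.878) and 0.29 ± 0.18 (adjusted p = 0.410) without it. The 95% interval of the MYLIP change held 0 for each treatment, with and without that array.

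**Figure D3:**
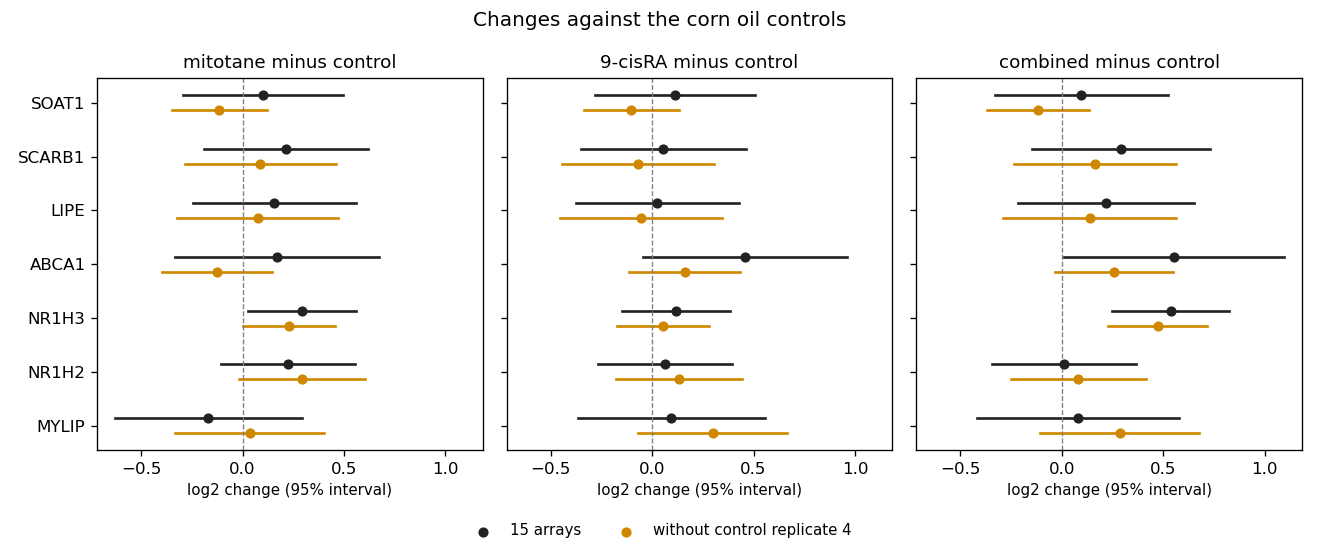
Log2 change against control (horizontal axis) with its 95% interval from limma for each of the 7 genes, under mitotane, 9-cisRA and combined treatment, with all 15 arrays (black) and without control replicate 4 (orange). The change of SOAT1 lies above 0 with that array and below 0 without it in all panels, while that of NR1H3 under combined treatment is 0.54 and 0.47.

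Set against the mean of the 3 other controls, control replicate 4 was off by -1.18 for ABCA1, -0.86 for SOAT1, -0.51 for SCARB1, -0.32 for LIPE and -0.26 for NR1H3. For MYLIP it was off by 0.82 and for NR1H2 by 0.27. A fit with array weights, in which limma lets arrays that deviate count for less, gave this array a weight of 0.04 and control replicate 2 a weight of 8.81. With these weights 28.6% of all transcripts were called for combined minus control, among them 4 of the 7 genes. NR1H3 had a change of 0.42 (adjusted p = 0.0016), MYLIP 0.39 (adjusted p = 0.024), ABCA1 0.27 (adjusted p = 0.037) and SOAT1 -0.24 (adjusted p = 0.029). NR1H3 was also called for combined minus 9-cisRA, at 0.33 (adjusted p = 0.022, background 9.91%). In the F test NR1H3 and MYLIP were called (background 19.2%). Control replicates 1 and 3 had weights of 1.24 and 0.96, so that control replicate 2 counted for more than the other 3 control arrays together.

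**Figure D4:**
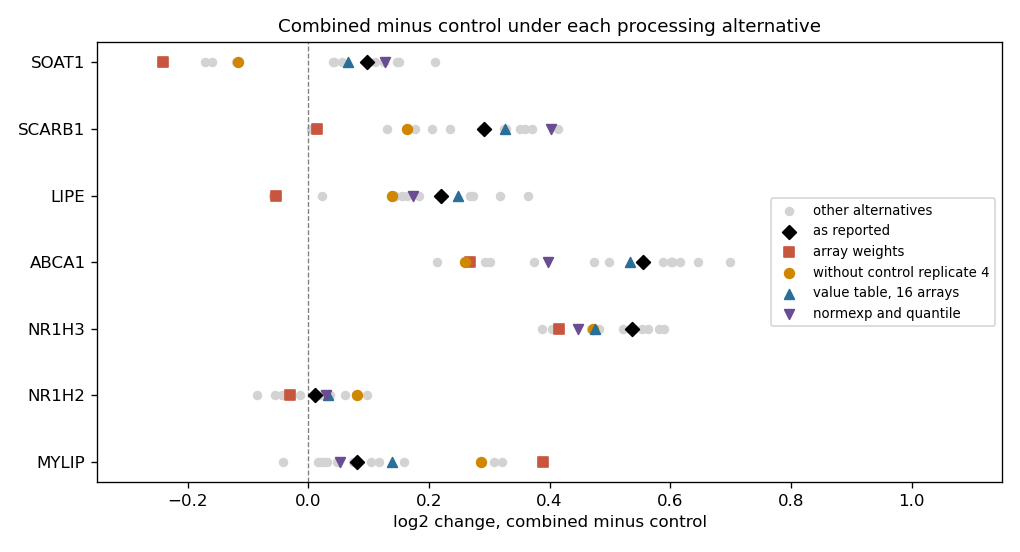
Log2 change for combined minus control (horizontal axis) of each gene in the fit as reported (black diamond) and under 29 alternatives of processing, of which 4 are marked by colour. NR1H3 stays between 0.39 and 0.59 and ABCA1 between 0.21 and 0.70, whereas SOAT1 lies on both sides of 0.

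As a description of likeness, the transcripts whose signal followed SOAT1 most closely over the 15 arrays were NM_138773, with a Pearson r of 0.97, and NM_020444, with 0.95. These arrays include control replicate 4, and all values share each array's scaling. Without that array NM_138773 was at 0.90 and NM_080672 at 0.86 over 14 arrays. Among the listed genes ABCA1 had an r of 0.71 with SOAT1 over 15 arrays and -0.17 over 14, and NR1H3 had 0.32 and -0.29, so that both changed sign without control replicate 4. SCARB1 had 0.55 and 0.18, and LIPE 0.33 and 0.004. MYLIP had -0.73 and -0.55, and NR1H2 -0.27 and -0.25.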

How the data were processed

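Agilent Feature Extraction gave the intensity of each spot, and the authors deposited this scanner output. Per the file headers its version was 11.0.1.1, which the submitters' processing notes shorten to 11.0.1. The authors also deposited a value table on a log2 scale, with normalization not given in the sources used. Its deviations from the probe mean correlated at r = 1 with those of the scanner files. Its column medians were -0.03 to 0.06, and -0.43 for control replicate 4. Here, the processed signal was scaled to each array's 75th percentile, taken over 43118 spots that were not controls, and put on the log2 scale. Outlier spots were dropped, spots of a probe averaged, and the brightest probe kept for each of 29094 identifiers. The 20216 transcripts tested (69.5%) had a probe well above background on all arrays of some group. All 4 groups entered one limma fit (version 3.58.1, R 4.3.3), without the slide as a block. P-values are two-sided and were adjusted by Benjamini-Hochberg over all transcripts, with a threshold of 0.05. The number of arrays limits the precision.

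The fits were tested on simulated data. Alternatives covered scaling, background correction, filters, probe choice, slide, array weights and samples. Since no mean signal was among the columns read, normexp (offset 50) used the median signals. The members, lists and alternatives were chosen with earlier results of these data known. The rule for named genes took every listed member and the 2 transcripts most like SOAT1. Pathway and marker genes fixed by symbol were not tested, because the names tables used here were for the mouse. For the same reason no sequence or coordinate is given.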

Additional observations from a re-analysis of the deposited data

Results flagged for a closer look

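The SOAT1 log2 signal of 9-cisRA replicate 1 was 1.92, whereas the other 9-cisRA arrays lay between 2.19 and 2.22. Its gap to the nearest of them was 0.87 of the group's range, above Dixon's 95% limit for 4 arrays. It was the only one of 21 sets of 4 arrays, 7 genes in 3 groups, to pass that limit, and about 1 in 20 sets does so by chance. Control replicate 4 did not pass it in any of the 7 genes, and no test was made in the combined group, which has 3 arrays.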

How the results depend on the processing

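The count of transcripts called at an adjusted p of 0.05 was 0 in every comparison, and with array weights it was 3 for mitotane minus control, 4 for 9-cisRA minus control, 5788 for combined minus control, 103 for combined minus mitotane, 2003 for combined minus 9-cisRA and 3886 in the F test. Array weights called 4 of the listed genes for combined minus control, 1 for combined minus 9-cisRA and 2 in the F test, and reversed SOAT1 for combined minus control to -0.24. Leaving out single arrays gave 0 to 1 transcripts for combined minus mitotane and 0 to 8 for mitotane minus 9-cisRA, the highest in both without mitotane replicate 2. The value table without control replicate 4 gave 1 for combined minus mitotane. No listed gene was called under any alternative other than array weights. NR1H3 kept its direction in all 29 alternatives of every comparison, and ABCA1 did for combined minus control. SOAT1 kept its direction against control in 24 of 29, and turned wherever control replicate 4 was left out or down-weighted.

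Deviations from group means had a median r of 0.01 (-0.27 to 0.37) over 21 pairs of arrays of the same slide. Over 63 pairs of different slides and groups it was -0.02 (-0.42 to 0.48). These medians showed no general pairing by slide. They do not measure array quality, and the arrays of slide 4 had the most outlier spots. With the slide as a replicate block, NR1H3 for combined minus control was 0.52 (adjusted p = 0.337 in limma) and ABCA1 0.60 (adjusted p = 0.372), and the count of transcripts called stayed at 0. The alternatives with control replicate 4 left out of the block fit, and the overlap in the value table, were chosen after seeing the data.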
